A study of Rattus norvegicus with 16 samples.

Results

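The 8 genes described here are the receptors for corticosteroid hormones, Nr3c1 (the glucocorticoid receptor) and Nr3c2 (the mineralocorticoid receptor), the enzyme Hsd11b1, and 5 genes whose transcription glucocorticoids are known to raise: Fkbp5, Sgk1, Tsc22d3, Zbtb16 and Klf9. They were taken by gene symbol and not by a cut on any measured value, though the set was chosen with earlier results of these data known. They make up 8 of the 16974 genes with a listed symbol on the array, and 20 of its 45904 gene probes. Male rats of one inbred strain, LOU/C/Jall, gave the hippocampus and frontal cortex samples, which were profiled on one-colour Agilent arrays, 1 array per sample and 16 in all. Young hippocampus, old hippocampus, young frontal cortex and old frontal cortex hold 4 arrays each. The old rats were 26 months of age, while the young rats are 5 months old by the sample labels and 3 months old by the series text, and which of these holds is not known. Every rat was put under isoflurane in N2O and O2 and decapitated, and no genotype or treatment sets groups apart. Each array carries a title code, Y, Z, AA or AB for young and AF, AG, AH or AI for old, used once per region. Whether a code is 1 rat is not stated, and every p-value therefore reflects only how these arrays spread.

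Corticosterone, the main glucocorticoid of rats, enters cells and binds both receptors. Nr3c2 binds it with the higher affinity and is known to be abundant in hippocampal neurons, and Nr3c1 is occupied when the hormone rises with stress or the daily peak. Hsd11b1 regenerates active hormone from its inert form inside the cell. The bound receptors act as transcription factors at glucocorticoid response elements of target genes. Fkbp5, a co-chaperone of the receptor complex, lowers the receptor's affinity for the hormone and so feeds back on it. Sgk1 is a kinase, Tsc22d3 (also called Gilz) a leucine zipper protein that mediates anti-inflammatory effects, and Zbtb16 (also called Plzf) and Klf9 are zinc finger transcription factors.

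On the GRCr8 assembly of the rat genome, the RefSeq table places Nr3c1 at chr18:31522783-31644508, Nr3c2 at chr19:47619853-47964089 and Hsd11b1 at chr13:107277526-107327462. Fkbp5 lies at chr20:6458931-6577227, Sgk1 at chr1:24799391-24916886, Tsc22d3 at chrX:109006410-109066389, Zbtb16 at chr8:57885886-58073507 and Klf9 at chr1:230126646-230151641. Nr3c1 and Nr3c2 have 4 probes each and the other genes 2 each.

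Promoter sequences are shown for 3 of the response genes, Fkbp5, Sgk1 and Tsc22d3, whose signals had the highest agreement between arrays of the same title code in the results below. The windows run from 250 bases before to 50 bases after a start listed by RefSeq on the GRCr8 assembly. All 3 lie on the minus strand, are written 5′ to 3′, and have the letters TATAAA in capitals where they occur. Sgk1 and Tsc22d3 each have more than 1 listed start, and a window that holds TATAAA is given.

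Fkbp5, chr20:6543506-6543805: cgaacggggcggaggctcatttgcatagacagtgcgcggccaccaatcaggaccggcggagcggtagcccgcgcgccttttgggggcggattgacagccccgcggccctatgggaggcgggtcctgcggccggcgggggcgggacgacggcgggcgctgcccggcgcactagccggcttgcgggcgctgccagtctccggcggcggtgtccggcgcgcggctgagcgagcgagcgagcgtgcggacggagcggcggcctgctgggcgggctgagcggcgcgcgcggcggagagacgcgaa
Sgk1, chr1:24804782-24805081: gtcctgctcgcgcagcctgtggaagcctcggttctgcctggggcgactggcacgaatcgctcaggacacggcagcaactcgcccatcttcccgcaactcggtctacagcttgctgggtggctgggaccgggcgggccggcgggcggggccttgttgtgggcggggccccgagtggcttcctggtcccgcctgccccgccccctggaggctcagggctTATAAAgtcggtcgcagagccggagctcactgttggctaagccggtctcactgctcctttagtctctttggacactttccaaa
Tsc22d3, chrX:109009985-109010284: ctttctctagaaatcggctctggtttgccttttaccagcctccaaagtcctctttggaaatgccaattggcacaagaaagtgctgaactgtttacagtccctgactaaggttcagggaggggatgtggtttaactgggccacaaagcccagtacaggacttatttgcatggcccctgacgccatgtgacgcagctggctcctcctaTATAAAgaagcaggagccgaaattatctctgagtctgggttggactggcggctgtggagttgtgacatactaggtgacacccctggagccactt

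The Fkbp5 window had a GC content of 77.0%, the Sgk1 window 66.0% and the Tsc22d3 window 50.67%, against a median of 51.67% over all windows of the table. TATAAA begins 33 bases before the start in the Sgk1 window and 44 bases before it in the Tsc22d3 window, and the Fkbp5 window does not hold it. In total 10 windows were matched, for Fkbp5, Klf9, Nr3c1, Sgk1 and Tsc22d3, and TATAAA, searched on both strands, was in 3 of them, compared with 14.222% of 33469 windows. The palindromic glucocorticoid response element (GNACA and TGTNC with 3 bases between them), searched on both strands, was in 0 of the 10 windows and in 0.439% of all. Its half-site TGTTCT, also searched on both strands and partly overlapping the palindrome, was in 0 of the 10 windows and in 20.685% of all. These matches describe the letters of the windows only. Nr3c2, Hsd11b1 and Zbtb16 were not matched to a window.

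The values are log2 signals, so a difference of 1 is a doubling of signal, and levels of different genes are not set against each other because each probe has its own brightness. A gene is given by its brightest probe. It was tested when its highest group mean exceeded an intensity minimum of 6.486 log2, which 10056 genes did, 7 of the 8 described here among them. These 7 exceeded it in all 4 groups. Negative control spots averaged 4.993 log2. The median residual SD of a tested gene was 0.165 log2, and pairs of arrays within a group had median correlations between 0.983 and 0.989. Of the neuron markers kept for each region, 7 of 8 hippocampal ones were called higher in hippocampus and 4 of 7 frontal cortex ones higher in frontal cortex, with 1 of each called the other way. Over all tested genes 14.4% were called in each direction. Dsp, 1 of the hippocampal markers called higher, was under the intensity minimum in frontal cortex and was tested through hippocampus alone. Arrays of the same group differed in markers of other tissue. The mean of 12 choroid plexus markers, relative to each gene's mean over the 16 arrays, ranged from -0.73 (AG) to 3.29 (AI) in old hippocampus and from -0.65 (AA) to 2.99 (AB) in young hippocampus. The mean of 8 striatal markers ranged from -0.49 to 1.28 in young frontal cortex and from 0.21 to 1.99 in old frontal cortex, where array AG was highest. The mean of 6 erythrocyte markers was highest on array AF of both regions, 1.18 in old hippocampus and 1.48 in old frontal cortex.

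Nr3c2 was the member that differed most between regions. Its signal in hippocampus exceeded that in frontal cortex by 1.44 ± 0.08 log2 (SE), a 2.72-fold difference, and all 8 hippocampus arrays lay above all 8 frontal cortex arrays. The young hippocampus arrays Y, Z, AA and AB gave 9.77, 10.18, 10.26 and 9.84 log2, and the old hippocampus arrays AF, AG, AH and AI gave 9.89, 9.73, 9.85 and 9.55. In frontal cortex the same codes gave 8.44, 8.51, 8.37 and 8.62 when young and 8.39, 8.50, 8.47 and 8.25 when old. The lowest hippocampus array was thus old AI, and it was still above the highest frontal cortex array, young AB. The adjusted p of the region difference was 1.58e-09 in limma, where 28.8% of the 10056 tested genes were called at an adjusted p under 0.05 and 8.73% had all arrays of one region above all arrays of the other. Within young rats the region difference was 1.53 log2 (95% interval 1.29 to 1.77) and within old rats 1.36 (1.11 to 1.60). A second bright probe correlated with the first at r = 0.99 over the 16 arrays and gave a region difference of 1.46 log2. A pair of further Nr3c2 probes stayed under the intensity minimum and were 0.44 and 0.56 log2 higher in hippocampus. In tissue samples such as these, fewer cells of a type and less RNA per cell cannot be told apart.

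With age, Nr3c2 gave no called difference. Young hippocampus averaged 10.01 ± 0.25 log2 and old hippocampus 9.76 ± 0.15 (SD, n = 4 each), and the arrays of the 2 ages overlapped. The difference of -0.26 ± 0.11 log2 (SE) had an unadjusted p of 0.0394 and an adjusted p of 0.698. In frontal cortex the means were 8.49 ± 0.11 (SD, n = 4) in young and 8.40 ± 0.11 in old rats, a difference of -0.08 ± 0.11 (SE, adjusted p = 0.7). Its second probe gave -0.17 in hippocampus and -0.04 in frontal cortex, the same direction at a smaller size.

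Nr3c1 was dim on these arrays. All 4 of its probes had group means between 5.40 and 6.25 log2, under the intensity minimum of 6.486, so the gene was not among those tested. The brightest probe read 6.10, 6.35, 6.06 and 6.50 in young hippocampus and 6.11, 6.47, 6.12 and 6.01 in old hippocampus. It read 6.26, 6.11, 5.97 and 6.13 in young and 6.18, 5.74, 6.51 and 5.82 in old frontal cortex. Single arrays exceeded the minimum in young hippocampus (AB) and in old frontal cortex (AH), and the 4 groups overlapped. Old minus young was negative on each of the 4 probes in both regions, from -0.24 to -0.07 log2 in hippocampus and from -0.28 to -0.06 in frontal cortex. The probes are listed for 1 transcript and are not independent. In a fit without the intensity minimum the brightest probe differed with age by -0.07 log2 in hippocampus (adjusted p = 0.971) and by -0.06 in frontal cortex (adjusted p = 0.91), and between regions by 0.12 (adjusted p = 0.521). The probes correlated with the brightest one at r between 0.42 and 0.63 over the 16 arrays. At this signal a change in the receptor's messenger RNA was not measurable with confidence, and these values do not give its level relative to Nr3c2.

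Hsd11b1 was the other member called between regions. Young hippocampus arrays read 8.87, 9.47, 9.14 and 9.27 log2 and young frontal cortex arrays 8.81, 8.70, 8.67 and 8.70, so that the young regions did not overlap. Old hippocampus arrays read 9.74, 9.37, 8.63 and 9.06 and old frontal cortex arrays 8.74, 7.97, 9.16 and 8.46, with array AH low in hippocampus and high in frontal cortex. Over both ages hippocampus was higher by 0.54 ± 0.16 log2 (SE), which is 1.46-fold, at an adjusted p of 0.0204 in limma. Without the title codes AF and AG the difference was 0.25 log2 (adjusted p = 0.207) and no longer called. The second probe, which correlated with the first at r = 0.91, gave 0.65 log2 in a fit over all kept probes (adjusted p = 0.00168).

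Old and young rats did not differ in Hsd11b1 beyond the spread. The hippocampal means were 9.19 ± 0.25 log2 (SD, n = 4) in young and 9.20 ± 0.47 in old rats, with an interval of the difference from -0.48 to 0.50. In frontal cortex they were 8.72 ± 0.06 (SD, n = 4) and 8.58 ± 0.50, with an interval from -0.62 to 0.35. The sign of both differences turned when single arrays were left out. Without old AF the hippocampal difference was -0.17, and it was also below 0 without old AG (-0.05), young Y (-0.10) or young AA (-0.01). Without old AG the frontal cortex difference was 0.07. On old frontal cortex array AG, the lowest for Hsd11b1 at 7.97, the striatal marker mean was the highest of all arrays. The part of striatal tissue in this value was not tested.

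Fkbp5 had the highest age difference of the 7 tested members in both regions, and it was not called in either. Hippocampus arrays read 9.63, 10.01, 10.24 and 9.78 log2 in young and 10.92, 10.35, 10.36 and 9.85 in old rats. Here the ages overlapped, since old AI lay below 2 of the young arrays. Frontal cortex arrays read 9.56, 9.45, 9.47 and 9.38 in young and 10.54, 10.16, 9.85 and 9.57 in old rats. All 4 old frontal cortex arrays lay above all 4 young ones, by a narrow margin at old AI, a separation that 12.8% of all tested genes had in frontal cortex. The old minus young difference was 0.46 ± 0.21 log2 (SE) in hippocampus, 1.37-fold, at an adjusted p of 0.725. It was 0.56 ± 0.21 log2 (SE) in frontal cortex, 1.48-fold, at an adjusted p of 0.142. The 95% intervals of these single differences ran from 0.01 to 0.90 and from 0.12 to 1.01. A second probe, at r = 0.99 to the first, gave 0.37 and 0.63 log2. Both differences were smaller without array AF of the region, 0.27 log2 in hippocampus and 0.39 in frontal cortex. Without codes AF and AG they were 0.19 and 0.24, and Sgk1 in hippocampus (0.26) and Tsc22d3 in frontal cortex (0.30) then had the higher age differences.

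The old arrays spread more widely than the young ones in Fkbp5, with an SD of 0.44 against 0.26 log2 in hippocampus and 0.42 against 0.07 in frontal cortex. Array AF was the highest and AI the lowest of the old arrays in both regions. In order of group means, old hippocampus was followed by old frontal cortex, young hippocampus and young frontal cortex, and of these neighbours young hippocampus and young frontal cortex alone did not overlap. Hippocampus was higher than frontal cortex by 0.40 ± 0.15 log2 (SE) at an adjusted p of 0.0573, just short of the threshold. This difference was called when 1 of 3 arrays was left out: 0.44 log2 without young hippocampus Y (adjusted p = 0.044), 0.48 without old hippocampus AI (adjusted p = 0.0166) and 0.48 without old frontal cortex AF (adjusted p = 0.0174).

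Sgk1 was highest on title code AF in both regions. Array AF read 10.88 log2 in old hippocampus and 11.07 in old frontal cortex, the highest Sgk1 values of each region. The other old arrays AG, AH and AI read 9.66, 10.26 and 9.95 in hippocampus and 9.39, 9.55 and 9.05 in frontal cortex. Young arrays read 10.03, 9.80, 9.87 and 9.68 in hippocampus and 9.46, 9.16, 9.49 and 9.30 in frontal cortex. Old AG in hippocampus and old AI in frontal cortex were thus below every young array of their region. The old minus young difference was 0.34 ± 0.33 log2 (SE, adjusted p = 0.858) in hippocampus and 0.41 ± 0.33 (SE, adjusted p = 0.477) in frontal cortex. Without code AF in both regions these were 0.11 and -0.02 log2.

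Between regions, Sgk1 was 0.46 ± 0.23 log2 (SE) higher in hippocampus, which was not called (adjusted p = 0.155), and young arrays of the 2 regions did not overlap. Without old frontal cortex AF the region difference was 0.68 log2 (adjusted p = 0.00269), and without code AF in both regions it was 0.56 (adjusted p = 0.00114). The second Sgk1 probe, at r = 0.93, gave 0.11 log2 with age in hippocampus, 0.40 in frontal cortex and 0.38 between regions. The mean of the 6 erythrocyte markers was also highest on AF in both regions. It was lowest on AG among old arrays, at -0.66 in hippocampus and -0.89 in frontal cortex. The part of blood in the Sgk1 values was not tested.

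Tsc22d3 had its old arrays high in frontal cortex except for AI. Frontal cortex arrays read 10.04, 9.96, 9.87 and 9.77 log2 in young and 10.35, 10.41, 10.59 and 9.83 in old rats, so AI fell within the young range. Hippocampus arrays read 10.15, 10.04, 10.16 and 9.91 in young and 10.30, 10.21, 10.55 and 9.91 in old rats, where AI equalled the lowest young array to 2 decimals. The age difference was 0.39 ± 0.15 log2 (SE) in frontal cortex, 1.31-fold, with an unadjusted p of 0.0196 and an adjusted p of 0.151. It was 0.18 ± 0.15 (SE) in hippocampus (adjusted p = 0.835). Without old frontal cortex AI the frontal cortex difference was 0.54 log2 and was called (adjusted p = 0.0269), in a fit in which 739 of 10056 genes were called. The regions did not differ beyond the spread, at 0.05 ± 0.11 log2 (SE), and the second probe gave 0.44 with age in frontal cortex and 0.23 in hippocampus. The region difference was -0.02 without that array.

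Zbtb16 was the other member whose ages did not overlap in frontal cortex. Young frontal cortex arrays read 6.996, 6.83, 6.83 and 6.96 log2 and old ones 7.80, 7.25, 7.17 and 7.11. Young hippocampus arrays read 6.93, 7.17, 7.11 and 7.31 and old ones 7.62, 7.19, 7.60 and 6.87, with AI below all young arrays and AF and AH above them. The difference of 0.43 ± 0.17 log2 (SE) in frontal cortex, 1.35-fold, had an adjusted p of 0.154, and that of 0.19 ± 0.17 in hippocampus one of 0.835. Without array AF of the region they were 0.27 and 0.09 log2. Its signals lay nearest to the intensity minimum among the tested members. A second probe gave 0.39 in frontal cortex and 0.14 in hippocampus. Regions were 0.10 ± 0.12 log2 (SE) apart, which was not called (adjusted p = 0.547).

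Klf9 varied least. Hippocampus arrays read 11.15, 11.001, 10.92 and 11.01 log2 in young and 11.28, 10.90, 11.15 and 10.93 in old rats. Frontal cortex arrays read 10.87, 10.98, 11.06 and 10.95 in young and 11.21, 10.95, 11.10 and 11.09 in old rats, and all 4 groups overlapped. The age difference was 0.04 log2 in hippocampus (95% interval -0.15 to 0.24) and 0.12 in frontal cortex (-0.08 to 0.32), and the region difference was 0.02 (-0.12 to 0.16). These intervals hold age differences of either sign in both regions. Without array AF of the region the hippocampal difference was -0.03 and that in frontal cortex 0.08. The region difference was also below 0 without that array (-0.02), without young hippocampus Y (-0.0047) and without old frontal cortex AG (-0.0061).

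**Figure D1:**
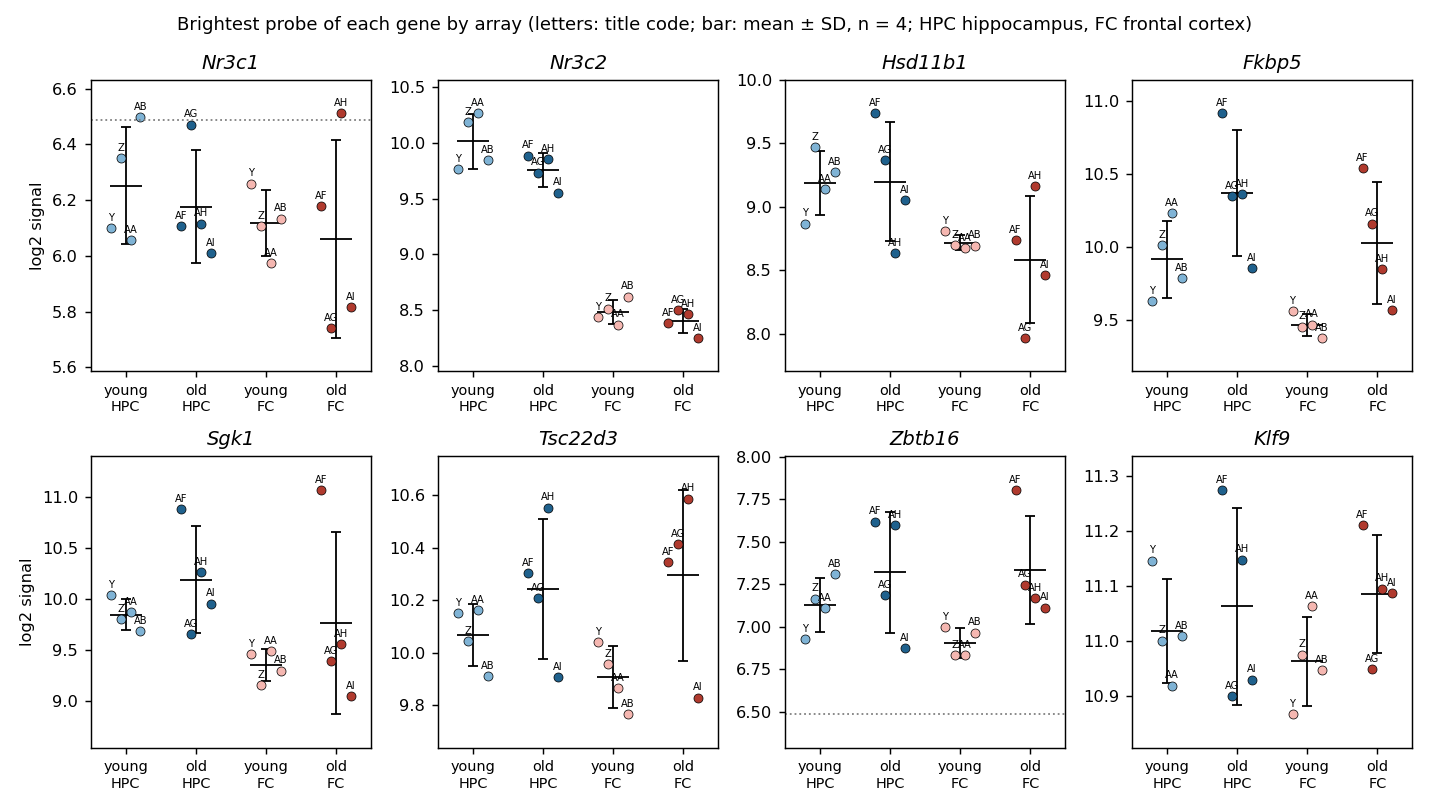
Log2 signal of the brightest probe of each of the 8 genes on every array, by group, with the title code beside each point and the mean ± SD of 4 arrays as a bar. The dotted line in the Nr3c1 and Zbtb16 panels is the intensity minimum of 6.486. Nr3c2 separates the regions, and array AF is the highest old array of Fkbp5, Sgk1, Zbtb16 and Klf9 in both regions.

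By comparison, 0 of the 7 tested members were called with age in hippocampus, where 0.0398% of all tested genes were called, and 0 in frontal cortex, where 0.965% were. At an unadjusted p under 0.05 there were 2 members in hippocampus (Nr3c2 and Fkbp5) and 3 in frontal cortex (Fkbp5, Tsc22d3 and Zbtb16), against 681 and 2233 of the 10056 genes. In hippocampus 6 of the 7 differences were positive with a median of 0.18 log2, and over all genes 52.884% were positive with a median of 0.01. In frontal cortex 5 of the 7 were positive with a median of 0.39, and over all genes 50.199% were positive with a median of 0.001. Without code AF in both regions, 4 of the 7 were positive in each region, with medians of 0.09 and 0.08. The arrays of old and young did not overlap for 0 members in hippocampus and for 2 in frontal cortex, Fkbp5 and Zbtb16, while 4.56% and 12.8% of all genes did not overlap.

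The age difference itself was compared between regions in the same fit, and 0 members were called, as were 0% of all tested genes. At an unadjusted p under 0.05 there were 0 members and 266 of all genes. The differences of age effects, hippocampus minus frontal cortex, ran from -0.24 log2 for Zbtb16 (-0.74 to 0.26) to 0.15 for Hsd11b1 (-0.55 to 0.84). These intervals do not show that the regions age alike in these genes. Between regions 2 of the 7 members were called, Nr3c2 and Hsd11b1, both higher in hippocampus, a share near the 28.8% of all tested genes called and so not a result about the members. All 7 region differences were positive with a median of 0.40 log2, where 50.587% of all genes were positive. Klf9 turned sign in the fits named above, with the mean of its probes and with array weights, and Tsc22d3 without old frontal cortex AI.

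The groups were also ordered by mean signal within each gene. For Hsd11b1 and Nr3c2 both hippocampus groups came before both frontal cortex groups, and the step between the regions was the one without overlap. For Hsd11b1 that step sets young hippocampus against young frontal cortex only. The old groups of the 2 regions overlapped in Hsd11b1, so its regions were not apart as those of Nr3c2 were. For Sgk1 the order was old hippocampus, young hippocampus, old frontal cortex and young frontal cortex, and each neighbouring pair overlapped. Tsc22d3, Zbtb16 and Klf9 shared the order old frontal cortex, old hippocampus, young hippocampus and young frontal cortex, again with overlap at each step, so neighbours in these orders are not told apart.

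**Figure D2:**
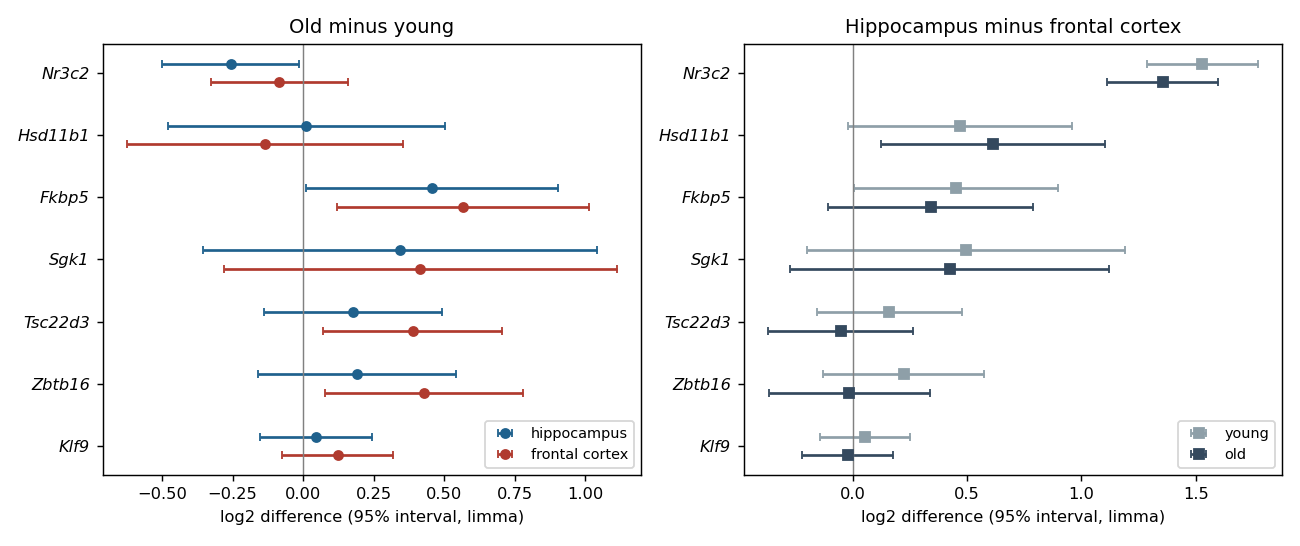
Log2 differences of the 7 tested genes with 95% intervals from limma, old minus young by region on the left and hippocampus minus frontal cortex by age on the right. The Nr3c2 region intervals, 1.29 to 1.77 in young and 1.11 to 1.60 in old rats, lie farthest from 0.

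Arrays of the same title code tended to deviate alike in some response genes. Each array's deviation from its group mean was set against that of the same code in the other region, over 8 codes. The Pearson r was 0.90 for Tsc22d3 (Spearman's rho 0.69), 0.88 for Sgk1 (0.76), 0.77 for Fkbp5 (0.50) and 0.51 for Zbtb16 (0.40). It was 0.33 for Klf9 (0.36), -0.02 for Nr3c2 (0.0) and -0.46 for Hsd11b1 (-0.17). Over all 10056 tested genes the median was 0.05, with quartiles at -0.26 and 0.37, and an r at or above that of Tsc22d3 occurred in 0.447% of genes, of Sgk1 in 0.716% and of Fkbp5 in 2.993%. These are descriptions over 8 points that may share animals, with no p.

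The old arrays AF and AI lay at the ends of this agreement. Sgk1 on AF stood 0.69 log2 above the group mean in hippocampus and 1.31 above it in frontal cortex. Fkbp5 on AF stood 0.55 and 0.51 above, and on AI 0.52 and 0.46 below. Tsc22d3 was highest among old arrays on AH, 0.31 and 0.29 above the means, and lowest on AI. Without the 2 codes farthest from the median in hippocampus, the r was 0.52 for Tsc22d3 and 0.70 for Sgk1, while it was -0.15 for Fkbp5 and -0.42 for Zbtb16, whose agreement rests on those codes. It was then -0.89 for Nr3c2, -0.68 for Klf9 and -0.43 for Hsd11b1. Without AF alone it was 0.90 for Tsc22d3, 0.63 for Sgk1, 0.56 for Fkbp5 and 0.22 for Zbtb16, and -0.01 for Nr3c2, -0.06 for Klf9 and -0.75 for Hsd11b1. The r of Klf9 thus changed sign in both cases.

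**Figure D3:**
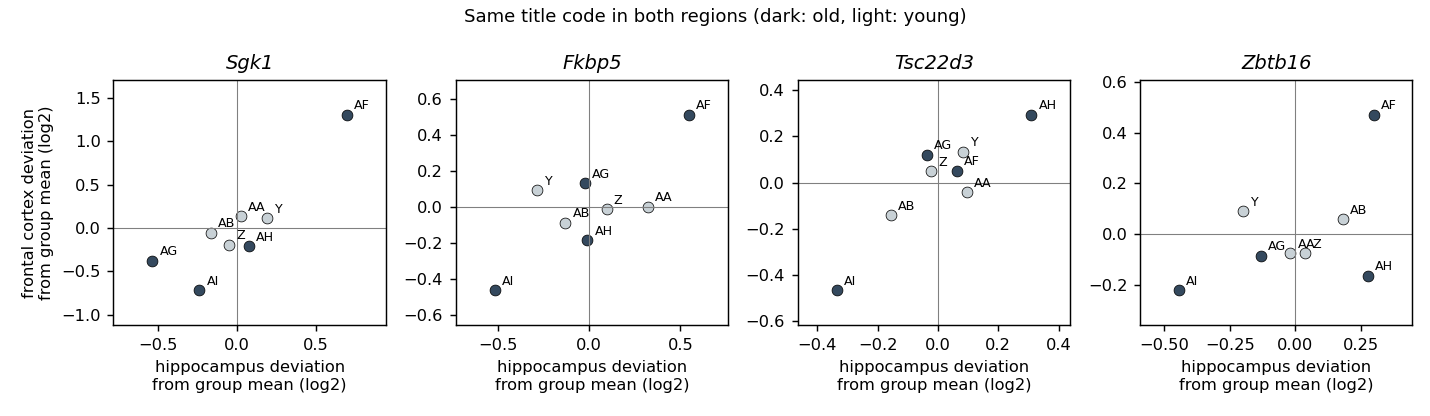
Deviation of each array from its group mean for Sgk1, Fkbp5, Tsc22d3 and Zbtb16, hippocampus on the horizontal and frontal cortex on the vertical axis, 1 point per title code (log2). Code AF lies at the upper right for Sgk1, Fkbp5 and Zbtb16, and code AI at the lower left in all 4 panels.

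Deviations of different members were also compared over the 16 arrays. The highest Pearson r was between Fkbp5 and Zbtb16 (0.78, and 0.61 without code AF), followed by Sgk1 with Zbtb16 (0.73, and 0.41 without AF) and Fkbp5 with Sgk1 (0.71, and 0.37 without AF). Fkbp5 and Nr3c2 gave 0.63, and 0.74 without AF. Hsd11b1 correlated with no other member above 0.29. The 16 arrays may share animals between regions, and probes share array effects, so these are descriptions without a p.

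For each tested member, the 3 genes with the most similar deviations over the 16 arrays were listed. Sgk1 was nearest to Ybx3 (r = 0.94), Rhd (0.91) and Apold1 (0.91), and Rhd is a blood group gene of erythrocytes. Rhd read 7.31 log2 on AF in old hippocampus and 7.43 in old frontal cortex, and between 5.33 and 6.93 on all other arrays. Its group mean exceeded the intensity minimum of 6.486 in old hippocampus alone, where array AF was high. Rhd was tested through that group only, so its likeness to Sgk1 supports nothing here. Tsc22d3 was nearest to Polr3f (0.82), the metallothionein Mt2A (0.81) and Trerf1 (0.80), and Fkbp5 to Crbn (0.91), Dhx38 (0.90) and Leo1 (0.90). Nr3c2 was nearest to Ttc5 (0.87), Neto1 (0.86) and Surf6 (0.84). Neto1, an auxiliary subunit of kainate receptors, also followed Nr3c2 in its levels across the arrays (r = 0.97 with the group means left in). Hsd11b1 was nearest to Smarce1 (0.93), Zfp407 (0.92) and Ube2g1 (0.91), Zbtb16 to Slc25a14 (0.92), Il2rg (0.92) and C1h11orf58 (0.91), and Klf9 to Eva1a (0.87), Ndufa6 (0.85) and St14 (0.85). Without the 2 arrays farthest from the median, Mt2A fell to an r of 0.53 with Tsc22d3 and Apold1 to 0.64 with Sgk1, while Ube2g1 stood at 0.98 with Hsd11b1.

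**Figure D4:**
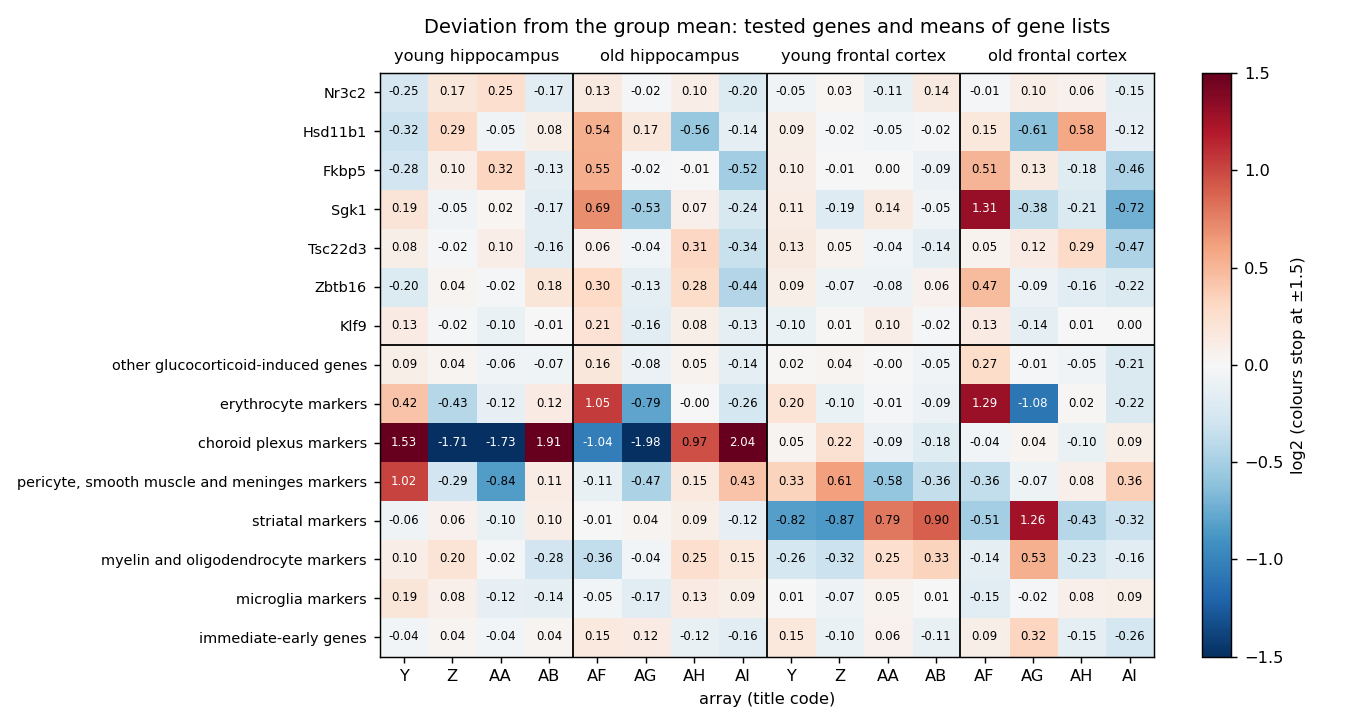
Deviation of each of the 16 arrays from its group mean for the 7 tested genes and for the means of gene lists (log2, colours stop at 1.5). On code AF, all tested genes but Nr3c2 are above their group means in both regions, Tsc22d3 by little. The erythrocyte markers, the other glucocorticoid-induced genes and the immediate-early genes are also above them there.

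Other genes that glucocorticoids induce in various tissues were read from a list of 50, of which 48 are on the array and 42 were tested. In old hippocampus 35 of the 42 had a higher mean than in young hippocampus, with a median difference of 0.20 log2, and 0 were called. Over all tested genes 52.884% were positive there and 0.0398% called. In frontal cortex 28 of 42 were higher with a median of 0.19, 0 were called higher and 1, Dusp1, was called lower. All tested genes were 50.199% positive there, with 0.557% called higher and 0.408% lower. Of the 42, 4 had a group mean under the intensity minimum: Dusp1, Map3k6, Arrdc3 and Nedd9. Nedd9 was tested through old hippocampus alone and Map3k6 was under the minimum in young hippocampus, and both count among the 35. The same sign, higher in old rats in both regions, was seen in 26 genes. Without code AF in both regions 34 of 42 were positive in hippocampus (median 0.16) and 24 of 42 in frontal cortex (median 0.06). The mean of the list on each array, relative to each gene's mean over the 16 arrays, was 0.37, 0.13, 0.26 and 0.07 on old hippocampus arrays AF, AG, AH and AI, and between -0.13 and 0.03 on young hippocampus arrays. In frontal cortex it was 0.30, 0.01, -0.02 and -0.18 on the same old codes, and between -0.22 and -0.14 on young arrays, so that AI was within the young range there. Several marker lists of other cells also had age differences mostly of 1 sign, with 0 markers called in either region. All 12 microglia markers were positive in hippocampus (median 0.50) and 11 of 12 in frontal cortex (median 0.25). Of 12 myelin and oligodendrocyte markers 10 were positive in hippocampus (median 0.11) and all in frontal cortex (median 0.43, and 0.51 without AF), while 7 of 8 striatal markers were positive in frontal cortex (median 0.40). Of 13 markers of pericytes, smooth muscle and meninges 11 were negative in hippocampus (median -0.27) and 12 in frontal cortex (median -0.73, and -0.54 without AF). All 6 erythrocyte markers were positive in both regions (medians 0.49 and 0.20), but without AF 5 were in hippocampus (median 0.08) and 1 in frontal cortex (median -0.30). The part of these cells in the list's values was not tested.

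The highest age differences of the list in both regions belonged to Mt1, Mt2A, Acer2, Gpd1 and Lcn2, none of them called. In hippocampus 8 of the 42 genes had all old arrays above all young ones and 2 had them below. In frontal cortex these numbers were 9 and 1. Dusp1, tested through young frontal cortex alone, is the 1 below in frontal cortex and 1 of the 2 below in hippocampus, and supports nothing in these counts. Map3k6, under the intensity minimum in young hippocampus, is among the 8. Over all tested genes the ages did not overlap for 4.56% in hippocampus and 12.8% in frontal cortex. The metallothionein Mt2A, which binds zinc and copper, read 12.41, 12.61, 12.25 and 12.21 log2 in young and 13.71, 13.51, 14.05 and 13.02 in old hippocampus. The old arrays lay above the young ones with AH highest, and the difference was 1.20 ± 0.22 log2 (SE, adjusted p = 0.0702). In frontal cortex it read 11.93, 12.08, 12.10 and 11.89 in young and 13.33, 12.72, 13.16 and 12.19 in old rats, also without overlap, a difference of 0.85 ± 0.22 (SE, adjusted p = 0.0654). Mt1 is a close relative of similar sequence, and whether its probe also reads Mt2A was not tested. It differed by 1.24 log2 in hippocampus (adjusted p = 0.18) and 0.86 in frontal cortex (adjusted p = 0.0942). Gpd1, the cytosolic glycerol-3-phosphate dehydrogenase, read 10.33, 9.80, 10.53 and 10.35 in young and 12.33, 11.79, 11.23 and 10.61 in old frontal cortex. Every old array was above every young one in both regions, AF was the highest old array and AI the lowest, and the difference was 1.24 ± 0.32 log2 in frontal cortex (SE, adjusted p = 0.0654) and 1.03 ± 0.32 in hippocampus (SE, adjusted p = 0.525). Acer2, a ceramidase singled out after its values were seen, read 10.89 in old hippocampus and 11.34 in old frontal cortex on AF, and between 8.997 and 9.75 on the other old arrays. It differed by 1.06 and 1.02 log2 with age, and without AF by 0.65 in hippocampus and 0.59 in frontal cortex. Lcn2, a secreted lipocalin that binds iron carriers, also chosen after its values were seen, read 7.34, 6.54, 6.18 and 7.30 in young and 7.57, 7.13, 8.33 and 7.71 in old hippocampus. Its age difference was 0.85 ± 0.27 log2 in hippocampus (SE, adjusted p = 0.532) and 0.94 ± 0.27 in frontal cortex (SE, adjusted p = 0.0793). Y and AB, the young hippocampus arrays where Lcn2 was higher, also had the higher choroid plexus marker means. The part of choroid plexus in the Lcn2 values was not tested.

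Dusp1, the phosphatase that shuts down stress-activated kinases, was the 1 gene of the list called with age, lower in old frontal cortex. Young frontal cortex arrays read 7.26, 6.94, 7.15 and 6.89 and old ones 6.41, 6.44, 6.18 and 6.23, the latter all under the intensity minimum. It was tested through young frontal cortex alone, the group where it was high, so the size of its difference is not given and the call supports nothing here. Dusp1 is also an immediate-early gene of neurons. In hippocampus it was under the minimum at both ages. Between regions 13 of the 42 genes were called higher in hippocampus and 3 lower, where 14.4% of all genes were called in each direction. The higher ones included the transcription factors Cebpb (1.51 log2) and Cebpd (1.26) and the steroid hydroxylase Cyp7b1 (0.79). Mt2A (0.55), Rhob (0.53), Il6r (0.55), Bcl6 (0.49), Ehd3 (0.44), Ddit4 (0.41), Arrdc2 (0.39), Sdc4 (0.39), Sesn1 (0.35) and Errfi1 (0.27) were the others, and Gadd45a (-0.36), Usp2 (-0.21) and Dusp1, under the minimum in hippocampus, were lower. Choroid plexus markers, all 12 positive and 9 called, had a median region difference of 2.04 log2 toward hippocampus. Of those called, 6 were under the minimum in frontal cortex and tested through hippocampus alone. Their part in these region calls was not tested.

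**Figure D5:**
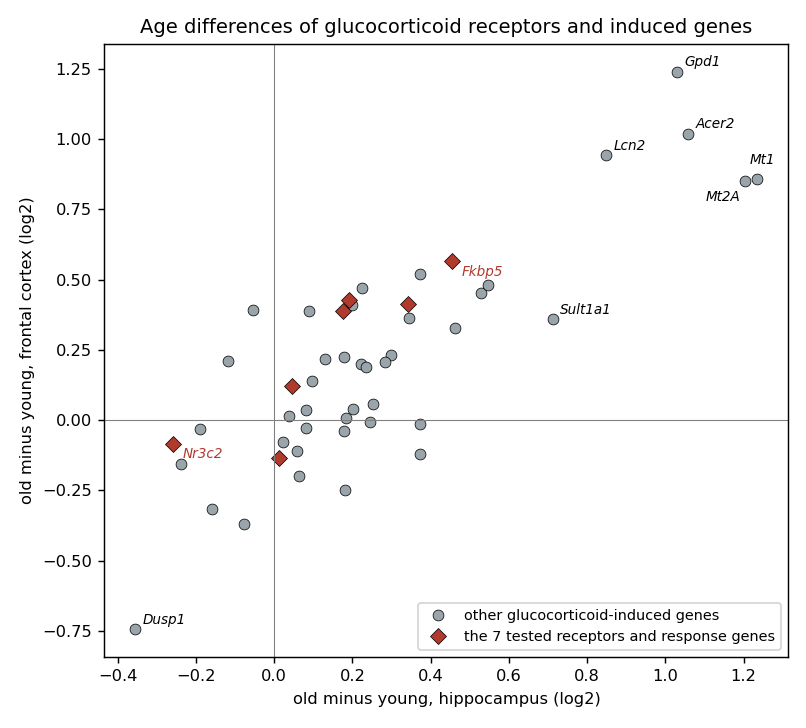
Old minus young log2 difference in hippocampus (horizontal) and frontal cortex (vertical) of the 42 tested genes of the glucocorticoid-induced list (circles) and the 7 tested receptors and response genes (diamonds). Gpd1, Acer2, Lcn2, Mt1 and Mt2A lie at the upper right, and Dusp1, under the intensity minimum in old frontal cortex, lies lowest on the vertical axis.

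The chaperones and coregulators that fold the receptor and carry its signal had mostly negative age differences. Of 19 tested members of 22, 14 had a lower mean in old rats in each region, with medians of -0.07 in both, and 0 were called. The phosphatase Ppp5c, a co-chaperone partner of the receptor, read 8.98, 9.19, 9.18 and 9.14 log2 in young and 8.40, 8.17, 8.68 and 8.91 in old frontal cortex. Old arrays all lay below young ones there, and 12.8% of all tested genes had no overlap of the ages in frontal cortex. The difference of Ppp5c was -0.58 ± 0.14 log2 (SE, adjusted p = 0.0559). The constitutive heat shock protein Hspa8 was -0.26 (adjusted p = 0.685) and Fkbp4, the co-chaperone that opposes Fkbp5, -0.21 (adjusted p = 0.76) in hippocampus, and Stip1, which links the chaperones, was -0.20 in frontal cortex (adjusted p = 0.19). Between regions 3 of the 19 were called, where 28.8% of all genes were, and all 3 were higher in hippocampus: the coactivator Ncoa1 (0.35 log2), the chaperone Hspa4 (0.29) and the co-chaperone Ptges3 (0.19). Neuron markers had negative age differences in 11 of 13 genes in hippocampus and 10 of 13 in frontal cortex, and their part in these values was not tested.

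Genes of corticosteroid metabolism and the stress axis were mostly dim, with 10 of 28 tested. With age 0 were called, and 8 of 10 were positive in each region with medians of 0.04 and 0.11 log2. Over all tested genes 52.884% were positive in hippocampus and 50.199% in frontal cortex. These counts hold Cyp21a1 and Cyp11b1, which passed the intensity minimum through 1 region alone. Both were negative in hippocampus and positive in frontal cortex, and they support nothing here. The mitochondrial cholesterol-binding protein Tspo, also a microglial marker in brain, was 0.64 higher in old hippocampus (adjusted p = 0.67) and 0.58 higher in old frontal cortex (adjusted p = 0.161). In young hippocampus it read 9.74 on Y and 9.51 on AB, where choroid plexus markers averaged 2.61 and 2.99. It read 8.84 on Z and 8.51 on AA, where they averaged -0.63 and -0.65. The part of choroid plexus in the Tspo values was not tested. The steroid hydroxylase gene Cyp21a1 exceeded the intensity minimum in young hippocampus alone, so its age difference is not given. Between regions 4 of the 10 were called, where 28.8% of all genes were. Crh, the releasing hormone that starts the stress response, was lower in hippocampus by a difference of -1.09 log2, and its binding protein Crhbp by -1.02. Abcb1b, a transporter that can export corticosteroids, was 0.59 higher in hippocampus. The probe listed for Cyp11b1, a hydroxylase of corticosterone synthesis, read between 8.90 and 9.48 on frontal cortex arrays and between 5.34 and 6.04, under the intensity minimum, on hippocampus arrays. It was called between regions but tested through frontal cortex alone, so no size is given, and which gene the probe reads is uncertain because Cyp11b1 has near-identical relatives.

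Of 15 genes that glucocorticoids repress, mostly cytokines and inflammatory enzymes, 3 were bright enough to test, and 0 were called with age. The adhesion molecule Icam1 was 0.38 in old minus young hippocampus (adjusted p = 0.729), and the growth factor Csf1 was 0.24 (adjusted p = 0.79). Vcam1, another adhesion molecule, was -0.29 in frontal cortex (adjusted p = 0.135). Csf1 was called higher in hippocampus than in frontal cortex by 0.54 log2. Immediate-early genes, which neurons switch on with activity and handling stress, had 13 of 19 members negative with age in each region, with medians of -0.15 and -0.25 log2. Over all tested genes 52.884% were positive in hippocampus and 50.199% in frontal cortex. The kinase gene Plk3 was called lower in old frontal cortex (-0.44, adjusted p = 0.0485), and Arc, a synaptic activity gene, was -1.02 (adjusted p = 0.0601). Over all tested genes 0.408% were called lower there. The 97 genes called with age in frontal cortex became 4 without young frontal cortex Z and 8 without old frontal cortex AF. Plk3 was not followed in those fits. Between regions 13 of these 19 were called lower in hippocampus and 3 higher, where 14.4% of all genes were called in each direction. Fos and Egr2, of the lower ones, were under the intensity minimum in hippocampus. They were tested through frontal cortex alone, Egr2 through young frontal cortex only. Both also count among the 13 negative with age in each region, and they support nothing in these counts. Egr1, also lower, differed by -1.22 log2, and the higher ones were Jun (0.43), Nr4a2 (0.92) and Nr4a3 (0.86). The other lower ones were Arc, Egr4, Homer1, Ier2, Ier3, Junb, Klf6, Nr4a1, Plk2 and Plk3.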

How the data were processed

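The deposited value table holds log2 signals with a column for each sample, joined by sample identifier. Scans were read by the authors in Agilent Feature Extraction (per the submitters' processing notes), and their background correction and normalization are not stated in the sources used. All columns hold the same sorted values within 0.001, as quantile normalization leaves them, from 4.944 to 17.771. The design had allowed for raw signals, but those 16 columns match no sample by name and were not used. Accessions gave 39795 probes a current symbol (RefSeq, GRCr8) and 6109 kept that of the array. Signals were aligned at the 75th percentile of each array (9.42 to 9.44). The brightest probe stands for a gene, and genes entered the test if a group mean passed the 40th percentile of probe means. R 4.3.3 with limma 3.58.1 fitted 4 group means to 16 arrays (12 residual degrees of freedom), two-sided, with Benjamini-Hochberg adjustment over 10056 genes, and called at 0.05. The procedure was tested on simulated data.

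The members and gene lists were chosen with earlier results of these data known. The text names all members, most with their further probes, called list members, and the 3 most similar genes per member. Of the genes with the 2 smallest p of each pathway list per comparison it gives some only. For the lists, differences of age effects are not given. Acer2, Lcn2 and the levels of Rhd were chosen after values were seen. Alternatives were the values as deposited, quantile normalization, no filter and a stricter filter, probe means, array weights, eBayes with trend and robust options, single regions, title code blocks, and left-out arrays and codes.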

Additional observations from a re-analysis of the deposited data

Results flagged for a closer look

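Of 32 sets of 4 arrays examined, 8 genes in 4 groups, 1 had an array apart from the others. Hsd11b1 in young frontal cortex read 8.81 log2 (8.8112) on array Y, while the other 3 arrays lay close together between 8.67 and 8.70. The gap to the nearest array was 0.8292 of the group's range, at the limit for 4 values. Chance flags about 1 in 20 such sets.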

How the results depend on the processing

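Limits of the data come first. With 4 arrays per group and a median residual SD of 0.165 log2, small age differences could not be called, and genes near background such as Nr3c1 give no usable contrast. Members called with age numbered 0 in hippocampus in every fit run, and 0 to 1 in frontal cortex when single arrays were left out, the 1 being Tsc22d3 without old frontal cortex AI. Between regions the number ran from 2 to 4 over those fits. It was 4 with the title code as a fixed replicate block and 4 without code AF in both regions, an alternative chosen after seeing the data. Fkbp5 and Sgk1 were then added (adjusted p of 0.00407 and 0.00954 with the block). As a random replicate block the code left 0 members called with age in either region, and as a fixed block 0 in the difference of age effects. The same-code correlation of all tested genes ran from -0.17 to 0.28 over the 8 codes, so the codes were not used as pairs. For single members the r over the 8 codes ran from -0.46 for Hsd11b1 to 0.90 for Tsc22d3. The correlation of all genes therefore does not settle the choice for each member.

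Fkbp5 between regions was also called with array weights (0.47, adjusted p = 0.00643), and without codes AF and AG (0.43, adjusted p = 0.02). Hsd11b1 between regions was lost without codes AF and AG (0.25). Directions turned as follows. With array weights the age difference in hippocampus was -0.0149 for Hsd11b1 and -0.0115 for Klf9, the difference of age effects of Hsd11b1 was -0.0047 and the region difference of Klf9 -0.0236. With the mean of all probes Hsd11b1 in hippocampus was -0.0163 and the region difference of Klf9 -0.0111. Without codes AF and AG, Hsd11b1 was -0.34 in hippocampus and 0.095 in frontal cortex, with a difference of age effects of -0.44, and Sgk1 was -0.0495 in frontal cortex with a difference of 0.31. Without code AF, Hsd11b1 was -0.17 and Klf9 -0.0258 in hippocampus, and Sgk1 was -0.0208 in frontal cortex with a difference of 0.13.

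Leaving out 1 array at a time, the age difference ranged from -0.17 to 0.20 for Hsd11b1 and from -0.0258 to 0.0992 for Klf9 in hippocampus. In frontal cortex it ranged from -0.0208 to 0.65 for Sgk1 and from -0.33 to 0.0699 for Hsd11b1. The difference of age effects ranged from -0.29 to 0.0625 for Fkbp5, from -0.31 to 0.36 for Sgk1 and from -0.0584 to 0.34 for Hsd11b1. The region difference ranged from -0.0236 to 0.11 for Tsc22d3 and from -0.0187 to 0.0438 for Klf9. The cause of these turns was not tested beyond the arrays left out. Of 290 values under the other settings, 267 kept direction and side of the threshold, and of 448 fits without 1 array 425 did.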
